A study of Mus musculus with 6 samples.

Results

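The cathepsins described here are 10 genes, Ctsa, Ctsb, Ctsc, Ctsd, Ctsf, Ctsh, Ctsl, Ctso, Ctss and Ctsz, found by gene name among the 23631 genes of the deposited table. RNA sequencing counted their transcripts in homogenised liver of male C57BL/6J mice, an inbred laboratory strain, in 3 libraries of mice fasted for 48 h and 3 libraries labelled re-fed. The sample labels say re-fed, whereas the treatment protocol speaks of normal feeding, so an earlier fast in that group is unsettled; it is called refed here. The labels give no age. All 6 libraries are of 1 strain and 1 sex, and the labels do not say whether each came from a separate animal, so each p-value reflects the spread among these libraries alone, and that spread could be technical.

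Cathepsins are proteases of the lysosome, the acidic compartment in which proteins delivered by endocytosis and autophagy are broken down. They are made as inactive proenzymes, carried to the lysosome mostly by mannose 6-phosphate receptors, and activated by cleavage at low pH. By catalytic type, Ctsd is an aspartic protease, Ctsa is a serine carboxypeptidase, and the others named here are cysteine proteases of the papain family. Liver is known for a high rate of autophagic protein breakdown during fasting, which supplies amino acids for glucose production.

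Cathepsin L set the fasted livers apart: Ctsl transcripts were 12.9-fold higher there, at 4766 ± 1150 CPM against 369 ± 12.4 CPM in refed livers (SD, n = 3 each; CPM, reads per 1000000 of TMM-scaled library). Ctsd, Ctsf, Ctsa and Ctsz were also higher in fasted livers, by smaller amounts. Ctsb and Ctsc were lower, and Ctsh, Ctso and Ctss did not pass the test. All 10 genes passed the filter on low counts. By edgeR's quasi-likelihood test at an adjusted p under 0.05, 7 of the 10 passed, 5 higher and 2 lower, where 59.4% of all 13248 genes tested passed, 29.2% higher and 30.2% lower. The count of cathepsins that changed is therefore near what all genes gave, and the sizes and directions of the single genes carry the description below. Their median log2 fold change was 0.398, beside -0.000387 over all genes tested.

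**Figure D1:**
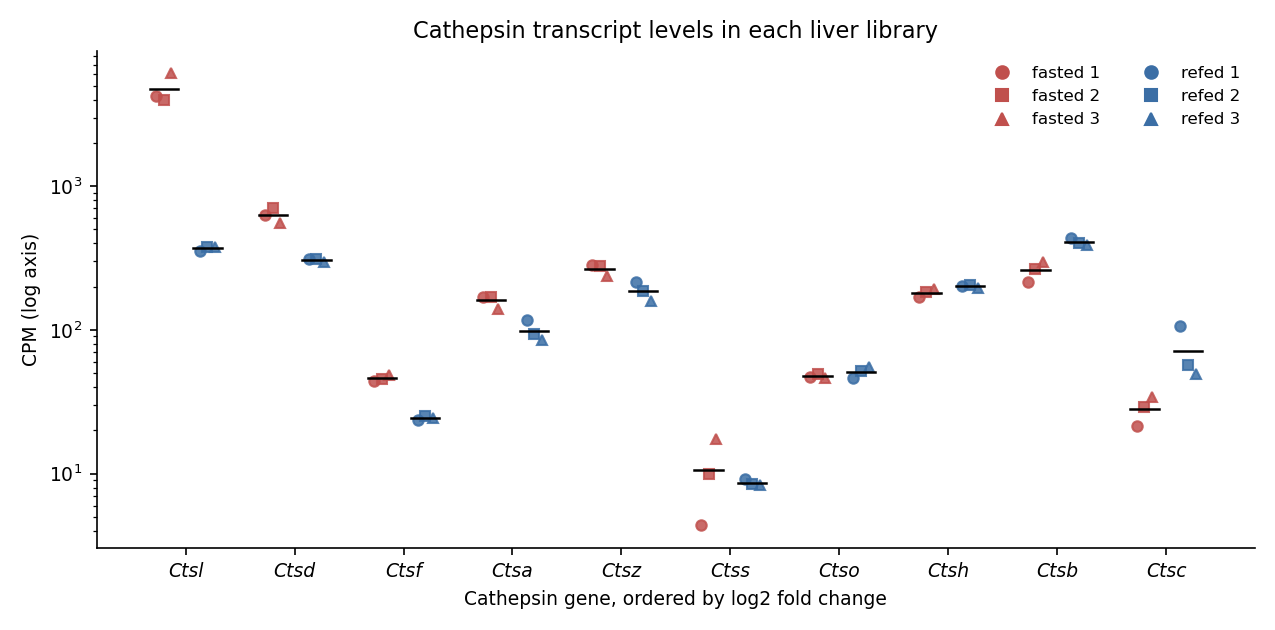
CPM (log axis) of the 10 cathepsin genes in each library, with fasted libraries in red, refed libraries in blue, a marker shape for each replicate number and black bars for group means. Ctsl lies at 3988 to 6087 CPM in fasted livers and at 355 to 377 CPM in refed livers, while Ctso and Ctss overlap between the groups.

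The libraries held 34170489 to 36026753 counts in fasted and 29574528 to 32988426 counts in refed livers. Hepatocyte markers were abundant in every library, their sum being 125300 to 151900 CPM in fasted and 98090 to 115700 CPM in refed livers. Of the 9 tested, 4 were higher, 1 lower and 4 did not pass, beside 29.2% higher and 30.2% lower over all genes. Fasted library 3 stood apart from the other fasted libraries: the second principal component, with 9.294% of the variance, placed it at -48.73, against 25.98 and 19.83 for fasted libraries 1 and 2. It also held neutrophil transcripts, with 1608 counts of S100a8 and 1192 of Ngp, where the other 5 libraries had at most 27 and 2. Among the 10 cathepsins it was the highest of the fasted libraries for 6 genes and the lowest for 4. Without it, 7 cathepsins still passed, 5 higher and 2 lower. Scaling by library totals instead of TMM factors moved the median of all genes by -0.21 on the log2 scale and their split to 2873 higher and 5074 lower, from 3867 and 3999. In whole liver, fewer cells of a type and less RNA per cell cannot be told apart.

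Ctsl (ENSMUSG00000021477; mm9 chr13:64464522-64471614) encodes cathepsin L, an endopeptidase that cuts within protein chains and is a main degrading enzyme of the lysosome. It had 4225, 3988 and 6087 CPM in the fasted libraries, against 355, 377 and 376 CPM in the refed libraries. Every fasted library was above every refed library, and fasted library 3 was the highest. The log2 fold change was 3.69 (SE 0.21; edgeR adjusted p = 8.94e-06), which ranked 112th from the top among the 13248 genes tested. A rise of at least 8-fold that passed the test was seen in 1.63% of all genes tested, and Ctsl was the only cathepsin among them. Without fasted library 3, the log2 fold change was 3.48 (adjusted p = 4.79e-08).

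Ctsl also moved into the group of the most abundant liver transcripts. It took 0.391%, 0.359% and 0.585% of all counts in the fasted libraries, against 0.0381%, 0.0406% and 0.0406% in the refed libraries. By count it ranked 34th, 40th and 19th among the genes of the fasted libraries, and 336th, 323rd and 314th among those of the refed libraries. In the authors' deposited table the log2 fold change of Ctsl was 3.614.

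Promoter letters were read for CACGTG, an E-box, which is the core of the element that TFEB and related factors bind at lysosomal genes. Only windows with a match are printed. RefSeq windows of GRCm38.p6, from 250 bases before to 50 bases after a gene's start, were at hand for 8 of the 10 genes, in 9 windows, with none for Ctsb and Ctsh. In these windows 4 genes held the E-box at 6 places. The matches are printed 5′ to 3′ on the gene's strand in stretches of 30 bases, with the E-box in capitals.
Ctsl, chr13:64370739-64370768, minus strand: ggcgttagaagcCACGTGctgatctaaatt
Ctsd, upstream match, chr7:142388048-142388077, minus strand: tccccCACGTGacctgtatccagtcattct
Ctsd, second match, chr7:142387908-142387937, minus strand: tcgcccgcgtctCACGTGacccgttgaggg
Ctsf, chr19:4855074-4855103, plus strand: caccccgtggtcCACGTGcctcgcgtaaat
Ctsa, upstream match, chr2:164833749-164833778, plus strand: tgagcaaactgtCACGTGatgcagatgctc
Ctsa, second match, chr2:164833766-164833795, plus strand: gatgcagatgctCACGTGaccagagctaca

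The E-box of Ctsl began 236 bases before the start site of its window. Those of Ctsd began 245 and 98 bases before the start, and that of Ctsf 79 bases before. In Ctsa the matches began 12 bases before and 5 bases after the start of the second of its windows. The longer form GTCACGTG, which contains the E-box and was read on both strands, was present at all 4 matches of Ctsd and Ctsa and at neither of those of Ctsl and Ctsf. Among all 32851 windows of the same length, 7.15% held the E-box and 2.25% the longer form. The forkhead letters GTAAACA, found in 3.65% of all windows on either strand, were in no window of a cathepsin. Higher in fasted livers were 5 of the 8 genes with a window, among them all 4 with an E-box. Ctsz was higher without one, and Ctsc, Ctso and Ctss had none. Ctsb, which was lower, had no window to read, and the first window of Ctsa held no E-box. A GENCODE exon covered 4 of the 6 matches, those being the match of Ctsl, the second of Ctsd and both of Ctsa. Start sites differ between the annotations: coding transcripts of Ctsl start 370 bases upstream and 214 bases downstream of the window's site. A coding transcript of Ctsd starts 211 bases upstream of the site of its window, so the second Ctsd match lies downstream of that start. The start site of the second Ctsa window lies 900 bases downstream of an annotated start. These are matches of letters and not measured binding.

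Ctsd (ENSMUSG00000007891; mm9 chr7:149557053-149573943) encodes the aspartic endopeptidase cathepsin D, which works beside cathepsin L in bulk protein breakdown. Its level was 626, 699 and 556 CPM in the fasted libraries, against 309, 312 and 296 CPM in the refed libraries. The groups did not overlap, and the refed libraries lay within a narrow range. It rose by 1.04 on the log2 scale (SE 0.14; edgeR adjusted p = 0.000394). A rise of at least 2-fold that passed the test was seen in 14.6% of all genes tested.

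Ctsf (ENSMUSG00000083282; mm9 chr19:4855129-4860912) encodes cathepsin F, a cysteine protease with a long cystatin-like propeptide. It had 43.9, 45.7 and 48.3 CPM in the fasted libraries and 23.7, 25.1 and 24.2 CPM in the refed libraries. Replicates were close to each other in both groups, which did not overlap. The rise was 0.92 on the log2 scale (SE 0.10; edgeR adjusted p = 0.000118).

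Ctsa (ENSMUSG00000017760; mm9 chr2:164658373-164666532) encodes cathepsin A, or protective protein, which trims C-terminal residues and stabilises lysosomal beta-galactosidase and neuraminidase. Fasted libraries had 171, 170 and 141 CPM, against 118, 94.3 and 85.4 CPM in refed libraries. The lowest fasted library, number 3, was above the highest refed library, number 1. Ctsa rose by 0.70 on the log2 scale (SE 0.15; edgeR adjusted p = 0.00485). Tested against a log2 change of 0.5, Ctsa did not pass (adjusted p = 0.0934). In the deposited coordinates it shares 584 bases with Neurl2 and 1515 bases with Pltp, and the labels do not say how the counting treated strand. Neurl2 rose, with 25 to 49 counts in fasted and 19 to 22 counts in refed libraries (log2 fold change 0.89; edgeR adjusted p = 0.0379). Pltp had 433 to 548 counts in fasted and 368 to 630 counts in refed libraries, where Ctsa had 4620 to 5684 counts in fasted and 3006 to 3726 counts in refed libraries. The part of shared reads in the rise of Ctsa was not tested.

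Ctsz (ENSMUSG00000016256; mm9 chr2:174252994-174264540) encodes cathepsin Z, also named cathepsin X, a cysteine carboxypeptidase. It had 283, 279 and 236 CPM in the fasted libraries and 214, 188 and 159 CPM in the refed libraries. The groups did not overlap, although fasted library 3 and refed library 1 came close. Ctsz rose by 0.51 on the log2 scale (SE 0.15; edgeR adjusted p = 0.0190). This was the least firm of the 5 rises: the adjusted p was 0.0543 and 0.0561 without fasted library 1 or 2, 0.0712 and 0.0776 without refed library 2 or 3, and 0.106 with library totals, where the log2 fold change was 0.29.

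**Figure D2:**
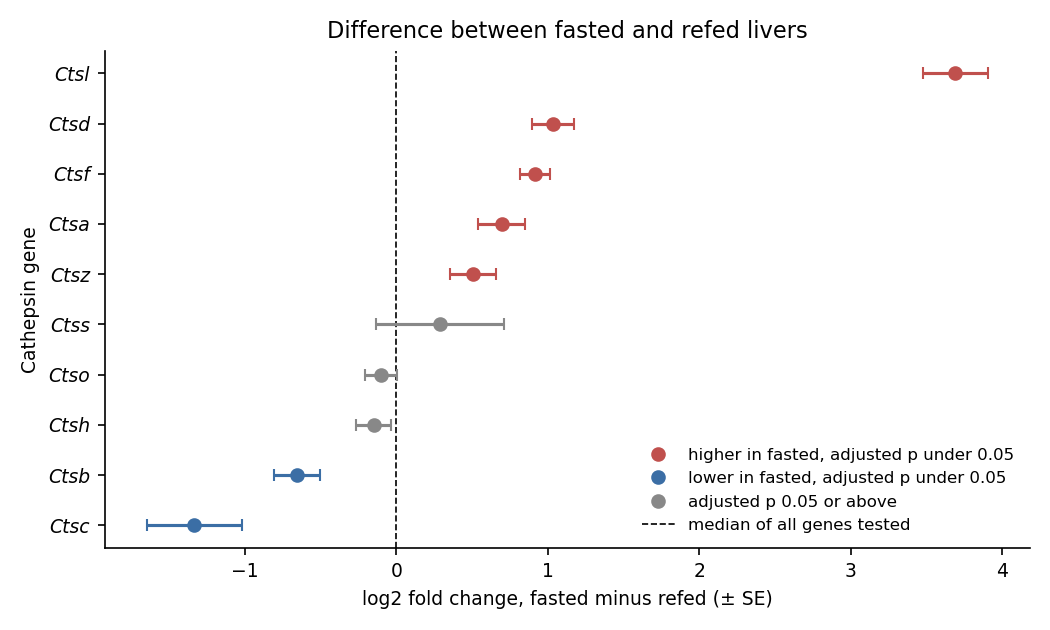
Log2 fold change of each cathepsin, fasted minus refed, with its standard error as horizontal bars; colours mark the call by edgeR's adjusted p and the dashed line is the median of all genes tested. Ctsl at 3.69 stands far from the next gene, Ctsd at 1.04, and Ctsc at -1.33 lies at the other end.

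Ctsb (ENSMUSG00000021939; mm9 chr14:63741302-63764758) went the other way. It encodes cathepsin B, a cysteine protease that cuts within chains and also removes dipeptides from the C-terminus. Fasted libraries had 217, 263 and 298 CPM, against 439, 399 and 388 CPM in refed libraries. The highest fasted library stayed below the lowest refed library. The log2 fold change was -0.66 (SE 0.15; edgeR adjusted p = 0.00649), and against a log2 change of 0.5 it did not pass (adjusted p = 0.134).

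Ctsb shares 769 bases in the deposited coordinates with Fdft1, which encodes squalene synthase of the cholesterol pathway. Fdft1 had 1150, 1036 and 1155 counts in the fasted libraries, against 4336, 4662 and 4608 counts in the refed libraries. Its log2 fold change was -1.97 (edgeR adjusted p = 6.66e-06). Ctsb itself had 7220, 8477 and 9799 counts in the fasted libraries, against 13917, 14180 and 13650 counts in the refed libraries. Whether reads from the shared stretch took part in the fall of Ctsb was not tested.

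Ctsc (ENSMUSG00000030560; mm9 chr7:95426595-95459398) encodes cathepsin C, or dipeptidyl peptidase I, which activates the granule proteases of neutrophils, mast cells and cytotoxic lymphocytes. Fasted libraries had 21.3, 29.1 and 34.1 CPM, against 107, 56.8 and 49.2 CPM in refed libraries. All fasted values were below all refed values, and refed library 1 was far above the other refed libraries. The log2 fold change was -1.33 (SE 0.31; edgeR adjusted p = 0.00799), and -0.92 without refed library 1 (adjusted p = 0.00782). With no filter on low counts it did not pass (adjusted p = 0.0516).

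Ctsh (ENSMUSG00000032359; mm9 chr9:89948990-89970927) encodes cathepsin H, a cysteine protease that removes N-terminal residues. It had 168, 183 and 193 CPM in the fasted libraries, against 203, 205 and 195 CPM in the refed libraries. Each fasted value was below each refed value, but the gap was small beside the spread, and the log2 fold change of -0.15 did not pass (SE 0.12; edgeR adjusted p = 0.289). Groups that do not overlap were seen in 8 of the 10 cathepsins, 5 with fasted above refed and 3 below; over all genes tested 67.2% did not overlap, 32.8% with fasted above and 34.4% below.

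Ctso (ENSMUSG00000028015; mm9 chr3:81736523-81760647), which encodes cathepsin O, a little-studied cysteine protease, had 47.0, 49.4 and 46.6 CPM in the fasted libraries, against 46.4, 51.4 and 55.6 CPM in the refed libraries. The groups overlapped, and the log2 fold change was -0.10 (SE 0.11; edgeR adjusted p = 0.434). With libraries scaled by their totals, Ctsh and Ctso passed as lower in fasted livers (adjusted p = 0.0262 for Ctsh and 0.0299 for Ctso), at log2 fold changes of -0.36 and -0.31, of which -0.21 was the shift of the median gene.

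Ctss (ENSMUSG00000038642; mm9 chr3:95330708-95360325) encodes cathepsin S, which antigen-presenting cells use to remove the invariant chain from MHC class II. Of the 10 genes it had the largest SD for its mean among the fasted libraries, with 4.38, 9.94 and 17.5 CPM, against 9.11, 8.53 and 8.41 CPM in refed libraries. The fasted values lay on both sides of the refed values. The log2 fold change was 0.29 (SE 0.42; edgeR adjusted p = 0.584). It was -0.28 without fasted library 3 (adjusted p = 0.459) and 0.66 without fasted library 1 (adjusted p = 0.0481).

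Markers of immune cells varied beside Ctss and Ctsc. The 15 Kupffer cell and macrophage markers summed to 47.47, 125.0 and 202.5 CPM in the fasted libraries, against 155.6, 144.5 and 170.4 CPM in the refed libraries. As for Ctss, fasted library 1 was the lowest and fasted library 3 the highest. None of these 15 genes rose by edgeR's test, 2 fell (Adgre1 and Folr2) and 13 did not pass, with a median log2 fold change of -0.49. The 9 genes of the dendritic cell and MHC class II list summed to 10.85, 14.52 and 23.88 CPM in the fasted libraries, against 43.02, 46.44 and 31.87 CPM in the refed libraries. All 4 of that list that were tested, H2-Aa, H2-Ab1, H2-Eb1 and Cd74, fell. Its other genes, Itgax, Flt3, Xcr1, Siglech and Ccr7, had too few counts for the test. Siglech had no count in any fasted library and 8 to 21 counts in the refed libraries. Itgax had 0 to 3 counts in fasted and 8 to 13 in refed libraries, and Xcr1 2 to 4 and 7 to 9. Flt3 had 8, 4 and 22 counts in fasted and 9, 9 and 6 in refed libraries, and Ccr7 0 to 3 and 1 to 5. The 9 neutrophil markers summed to 1.319, 2.297 and 191.8 CPM in the fasted libraries, against 1.481, 0.5906 and 0.6244 CPM in the refed libraries. Of these neutrophil markers 2 were tested. S100a9 passed as higher, with 14, 22 and 2344 counts in the fasted libraries, against 9, 2 and 1 in the refed libraries. Most of its counts came from fasted library 3. Csf3r did not pass, and Ly6g had 1 count in all. Over all genes tested, 59.4% passed, 29.2% higher and 30.2% lower. Of the remaining lists, sinusoidal endothelium had 3 higher, 1 lower and 6 not passed, and stellate cells 1, 2 and 7. Cholangiocytes had 2, 1 and 2, B cells 1, 1 and 1, and the only tested T and NK cell gene was lower. The part of these cells in the values of Ctss and Ctsc was not tested.

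**Figure D3:**
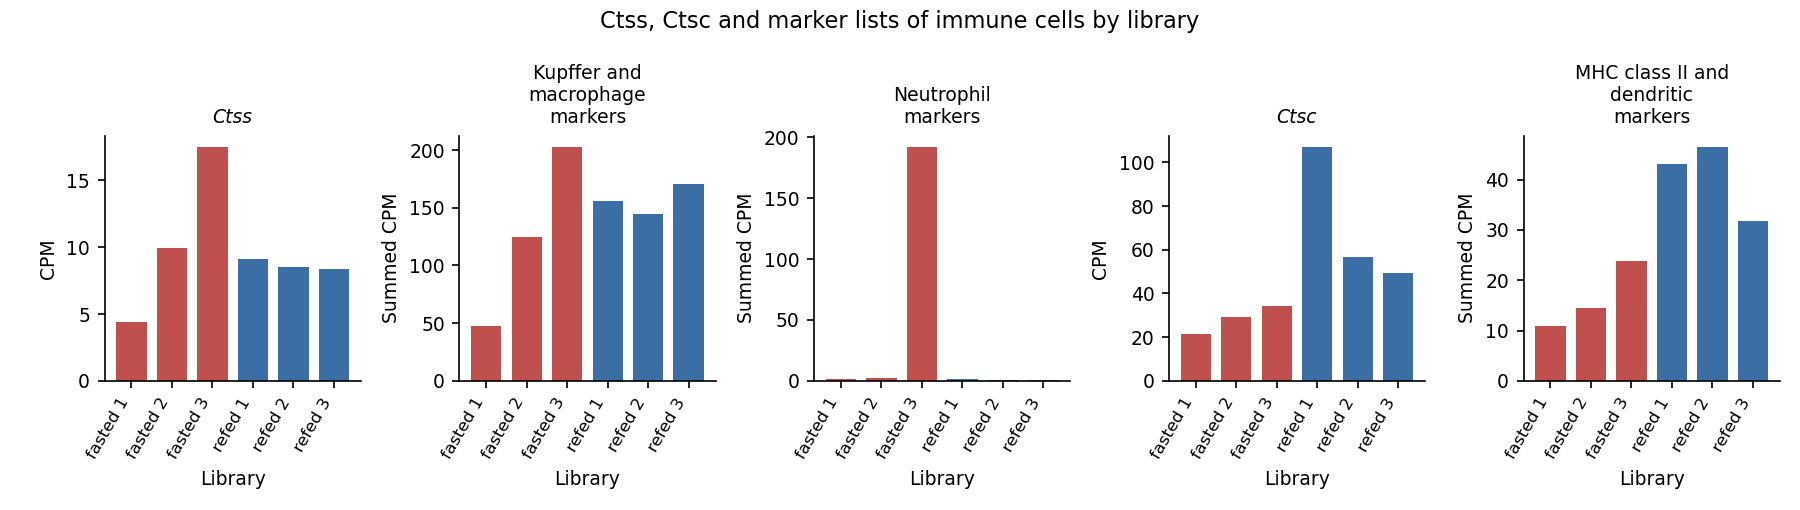
Bars give the CPM of Ctss and Ctsc and the summed CPM of 3 marker lists in each library, fasted libraries in red and refed libraries in blue. Ctss and the macrophage sum are lowest in fasted library 1 and highest in fasted library 3, and the neutrophil sum is high in fasted library 3 alone.

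The make-up of the cathepsin transcripts differed between the states. Summed over the 10 genes, the level was 5805.8, 5716.0 and 7656.6 CPM in the fasted libraries, against 1824.1, 1717.1 and 1636.8 CPM in the refed libraries, a ratio of means of 3.704. Without Ctsl the sums were 1581.0, 1728.5 and 1569.7 CPM in the fasted libraries, against 1469.0, 1340.1 and 1260.6 CPM in the refed libraries, a ratio of 1.199. As a percentage of all counts, with no scaling factor, these 9 genes took 0.146%, 0.155% and 0.151% in the fasted libraries, against 0.158%, 0.144% and 0.136% in the refed libraries, and the groups overlapped. The 7 cysteine cathepsins other than Ctsl summed to 839.08 ± 47.52 CPM in fasted and 951.8 ± 83.12 CPM in refed livers (SD, n = 3 each). Apart from Ctsl, the sum thus held genes that moved in opposite directions.

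Levels were compared between genes on the deposited normalised signal per kb of gene length. On this scale Ctsl gave 69.33%, 66.62% and 77.35% of the 10 genes' sum in the fasted libraries, against 18.32%, 20.68% and 21.83% in the refed libraries. Each fasted share was above each refed share, at 71.1% ± 5.58 in fasted and 20.28% ± 1.79 in refed livers (SD, n = 3 each). The two-sided exact permutation p was 0.1, the smallest that 3 libraries against 3 allow, and stayed at 0.1 after adjustment over the 10 genes. The share of every other cathepsin gave the same p, so this test does not single out Ctsl. Ctsh, the leading gene of the refed livers on this scale, gave 5.57% of the sum in fasted and 22.27% in refed livers. Its own level per kb differed less, at 8458.6 in fasted and 9354.7 in refed livers, because each share depends on the sum that includes Ctsl. Ctsd gave 9.35% in fasted and 16.19% in refed livers, although its own level per kb was higher in fasted livers.

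In fasted livers the order of the level per kb was Ctsl, Ctsd, Ctsh, Ctsa, Ctsz, Ctsb, Ctso, Ctsf, Ctsc and Ctss, from high to low. Ctsl stood at 109970 ± 25890 and Ctsd at 14003 ± 1640 normalised counts per kb (SD, n = 3 each). The ranges of Ctsh and Ctsa, of Ctsa and Ctsz, of Ctsb and Ctso, and of Ctsf and Ctsc overlapped, so these neighbours were not separated. In refed livers the order was Ctsh, Ctsl, Ctsd, Ctsz, Ctsa, Ctsb, Ctsc, Ctso, Ctsf and Ctss. There Ctsh stood at 9354.7 ± 279.0 and Ctsl at 8502.0 ± 271.6 normalised counts per kb, and only the ranges of Ctsz and Ctsa and of Ctsc and Ctso overlapped among neighbours.

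The order depends on the length used. The deposited length was 4.738 kb for Ctsb, 0.667 kb for Ctsa and 0.732 kb for Ctsh, while their longest GENCODE coding sequences are 1.017, 1.476 and 0.999 kb. By coding length, a scale added after the data were seen, Ctsb led the refed livers at 13677 ± 928.3 counts per kb, ahead of Ctsl at 12554 ± 401.0. Ctsl led the fasted livers on both scales, and by coding length its share was 75.99% in fasted and 22.78% in refed livers.

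**Figure D4:**
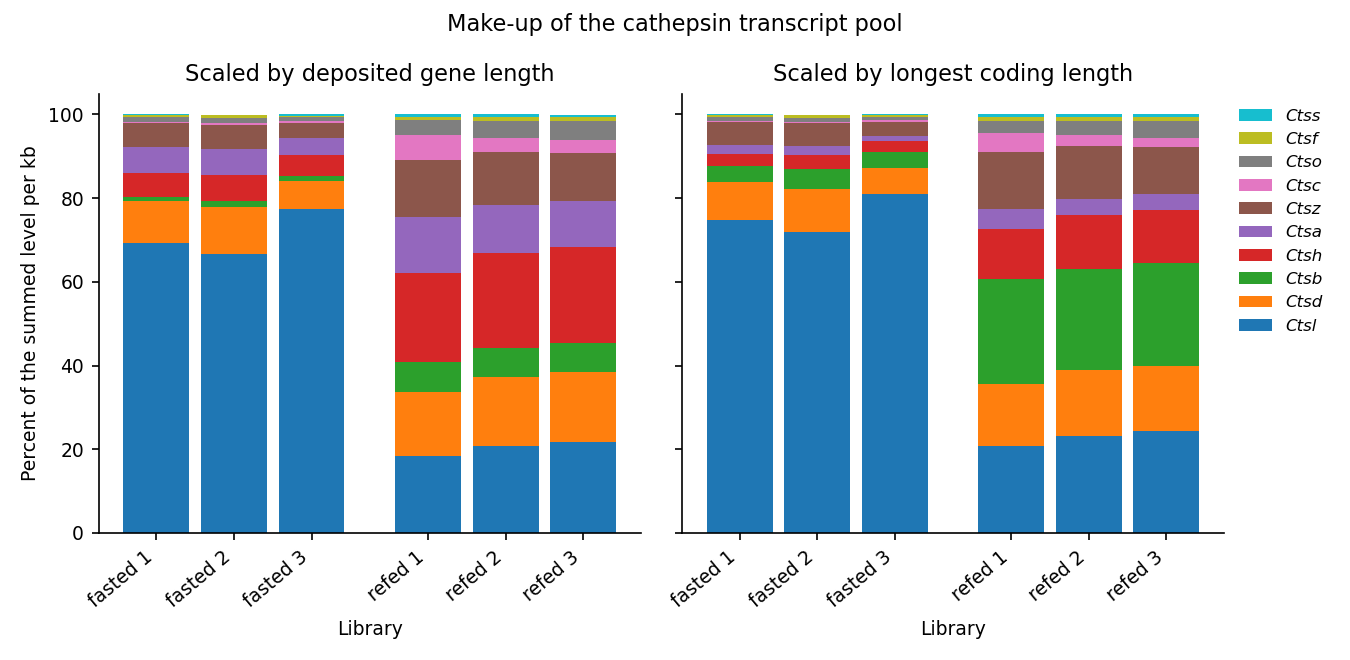
Percentage of the summed level per kb given by each of the 10 cathepsins in each library, scaled by the deposited gene length on the left and by the longest coding sequence on the right. Ctsl gives 66.62% to 77.35% of the sum in fasted livers and 18.32% to 21.83% in refed livers by deposited length, and the place of Ctsb depends on the length used.

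For each cathepsin, the gene with the most similar profile was taken by the root mean square difference of log2 CPM over the 6 libraries, each gene centred on its own mean, among 8684 genes of at least 5 CPM. For Ctsl this was Atg16l2, with a difference of 0.221, and no gene came within 0.1 of Ctsl. Atg16l2 had 57.6, 49.0 and 70.3 CPM in the fasted libraries, against 6.46, 4.42 and 5.03 CPM in the refed libraries. For Ctss it was Laptm5, at 0.074, with 2.85, 6.58 and 11.8 CPM in the fasted libraries, against 5.27, 5.40 and 5.51 CPM in the refed libraries. Laptm5 shared the order of Ctss among the fasted libraries.

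The other nearest genes were Nsmce1 for Ctsd (0.0434), Coq6 for Ctsf (0.0415), Tm2d1 for Ctsa (0.0566), Gss for Ctsz (0.0527), Gc for Ctsb (0.0272), Pyroxd2 for Ctsc (0.146), Tysnd1 for Ctsh (0.0181) and Msl3 for Ctso (0.0265), each with its root mean square difference on the log2 scale. Ctsl and Ctsc had no gene within 0.1, whereas Ctsh had 258 and Ctso 183, so the profiles of Ctsh and Ctso were the common ones.

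The rest of the lysosomal system did not share the size of the change in Ctsl. Of 13 other cathepsin genes listed, 7 were in the table and 2 had enough counts for the test. Ctsk, the cysteine protease by which osteoclasts degrade bone collagen, had 0.75, 0.621 and 0.914 CPM in the fasted libraries and 0.252, 0.225 and 0.227 CPM in the refed libraries. Its log2 fold change was 1.68 (edgeR adjusted p = 0.00217) at a level far below that of the 10 cathepsins. Ctse, an aspartic protease, had a log2 fold change of 0.03 (edgeR adjusted p = 0.962). Ctsg, a serine protease of neutrophil granules, had 69 counts in fasted library 3 and none in the other 5 libraries.

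Among 5 other lysosomal peptidases, 1 fell, none rose and 4 did not pass, where 59.4% of all genes tested passed. The median log2 fold change of the 5 was -0.28. The gene that fell was Prcp, a prolyl carboxypeptidase, at 2.99 ± 0.421 CPM in fasted and 6.85 ± 0.922 CPM in refed livers (log2 fold change -1.20; edgeR adjusted p = 0.000734). Dpp7, a dipeptidyl peptidase, had a log2 fold change of -0.33 (edgeR adjusted p = 0.0851). With library totals, 3 of these 5 passed as lower; without fasted library 1, 1 passed as higher and 1 as lower, and without fasted library 3, 2 passed as lower.

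Of 12 genes that sort enzymes to the lysosome, 2 rose, 5 fell and 5 did not pass. The share of all genes tested that passed was 59.4%, with 29.2% higher and 30.2% lower. With library totals none of the 12 rose and 6 fell. Without fasted library 2, or without any of the refed libraries, 1 rose and 5 fell. Gga2, an adaptor that packs mannose 6-phosphate receptors at the Golgi, stood at 7.92 ± 2.39 CPM in fasted and 23.1 ± 5.17 CPM in refed livers (log2 fold change -1.55; edgeR adjusted p = 0.00138). Igf2r, the large mannose 6-phosphate receptor, stood at 15.0 ± 4.94 CPM in fasted and 35.2 ± 2.63 CPM in refed livers (log2 fold change -1.22; edgeR adjusted p = 0.00310). Gnptab, which builds the mannose 6-phosphate tag, Lrp1 and Gga3 also fell. Gga1 and Scarb2, which carries glucocerebrosidase, rose. The small receptor M6pr did not pass (log2 fold change 0.07; edgeR adjusted p = 0.610).

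Of 10 listed inhibitors of cysteine cathepsins, 5 were tested. Of these 5, 1 rose and 4 did not pass, where 59.4% of all genes tested passed. Cstb, cytosolic cystatin B, stood at 32.4 ± 4.17 CPM in fasted and 24.1 ± 3.01 CPM in refed livers (log2 fold change 0.43; edgeR adjusted p = 0.0276), and it did not pass as higher with library totals, nor without refed library 1 or refed library 3. Kng2, a kininogen with cystatin domains, had a log2 fold change of 0.35 (edgeR adjusted p = 0.0611).

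The TFEB list holds the transcription factor TFEB, which switches on lysosomal genes, with its relatives TFE3, MITF and TFEC. The folliculin and Rag proteins, which hold TFEB back when nutrients are present, are also listed, as is Mcoln1. Foxo1, Foxo3 and Ppargc1a, regulators of the fasting liver, complete the list. Of its 15 genes 14 were tested, 7 rose, 3 fell and 4 did not pass, with a median log2 fold change of 0.60. Among all genes tested 29.2% rose and 30.2% fell. Foxo1 stood at 80.6 ± 2.85 CPM in fasted and 37.0 ± 8.21 CPM in refed livers (log2 fold change 1.12; edgeR adjusted p = 0.000511). Fnip2, a partner of folliculin, stood at 10.6 ± 0.995 CPM in fasted and 26.7 ± 4.30 CPM in refed livers (log2 fold change -1.34; edgeR adjusted p = 0.000171). The other genes of the list that passed are named after their values were seen: Tfeb, Tfe3, Fnip1, Rragc, Rragd and Ppargc1a rose, and Mitf and Tfec fell. The log2 fold change of Tfeb was 0.67 (edgeR adjusted p = 0.0169) and that of Tfe3 was 0.61 (edgeR adjusted p = 0.0320). Tfeb had 9.51, 11.2 and 14.6 CPM in the fasted libraries, against 7.13, 8.64 and 6.39 CPM in the refed libraries. Tfe3 had 26.9, 22.5 and 40.4 CPM in fasted and 19.3, 19.8 and 19.9 CPM in refed libraries. Fasted library 3 was the highest for both. The log2 fold changes of Mitf and Tfec were -1.17 and -2.05 (edgeR adjusted p = 0.00771 and 0.00182). Counts of Tfec were low, at 3, 5 and 7 in fasted and 21, 22 and 23 in refed libraries. With library totals, 5 of the list rose and 4 fell. Without refed library 1 or refed library 3, 5 rose and 3 fell, and without fasted library 3, 8 rose and 4 fell.

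In the largest list, 55 lysosomal hydrolases, membrane proteins and subunits of the proton pump, 17 rose, 15 fell and 23 did not pass. Over all genes tested 59.4% passed, 29.2% higher and 30.2% lower, so this list was near what all genes gave. Its median log2 fold change was 0.002, and with library totals 11 rose and 23 fell. Without refed library 2, 11 rose and 13 fell. Idua, which removes iduronic acid from glycosaminoglycans, stood at 18.0 ± 2.29 CPM in fasted and 3.01 ± 0.231 CPM in refed livers (log2 fold change 2.58; edgeR adjusted p = 9.82e-06). Gaa, which degrades glycogen in lysosomes, stood at 212 ± 17.4 CPM in fasted and 76.6 ± 5.09 CPM in refed livers (log2 fold change 1.47; edgeR adjusted p = 4.18e-05). Split by symbol after the values were seen, 7 of the 14 V-ATPase genes rose and 2 fell, and of the other 41 genes 10 rose and 13 fell.

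**Figure D5:**
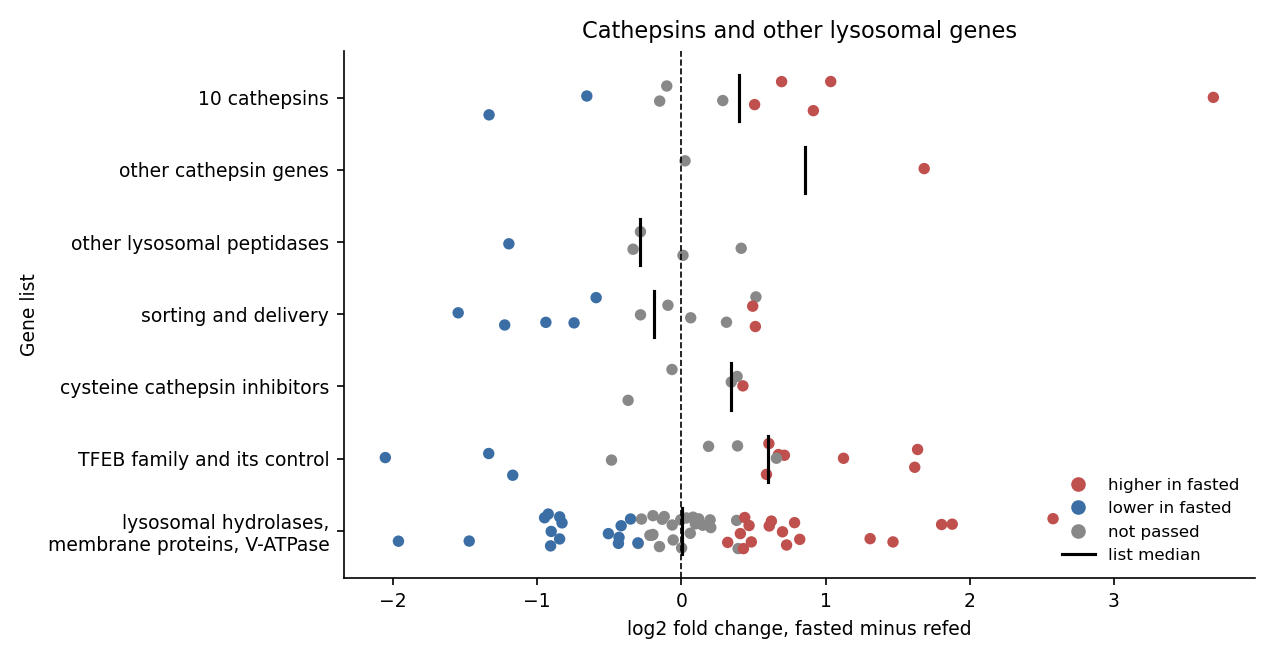
Each point is a tested gene at its log2 fold change, fasted minus refed, for the 10 cathepsins and 6 lists of related genes; red marks genes that rose and blue genes that fell by edgeR's adjusted p, black bars are list medians and the dashed line is the median of all genes tested. Ctsl at 3.69 lies beyond every gene of the 6 lists, of which Idua at 2.58 is the nearest; with library totals the split of the largest list is 11 higher and 23 lower.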

How the data were processed

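The deposited table holds, per the file headers, raw counts of reads, the authors' normalized signal, the same per kb of gene, and the authors' log2 fold change with its p-value and adjusted p-value. The deposited signal was the count divided by 1 size factor per library. Named in the submitters' processing notes, without roles, are the build mm9, DESeq2 1.0.19, HTSeq 0.5.4p3, Bowtie2 2.1.0 and TopHat2 2.0.10; how strand was treated and which annotation was used are not given there. Every gene is a row with an identifier, and no 2 libraries of the same group differed by as little as sampling noise.

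Counts were fitted with edgeR 4.0.16 in R 4.3.3: filterByExpr (minimum count 10; 13248 of 23631 genes kept), TMM factors, robust glmQLFit and glmQLFTest with group as the only term, and Benjamini-Hochberg adjustment over all genes tested, at 0.05. The procedure was tested on simulated data. Fold changes are fasted minus refed; the SE is the log2 fold change over the root of the F statistic. A floor of 3 counts is 0.0844 to 0.0946 CPM. The SE reflects counting error together with the spread among libraries as fitted by edgeR. Alternatives were DESeq2 1.42.0, limma-voom 3.58.1, other scalings and filters, glmTreat against 0.5, a replicate block and each library left out.

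The cathepsins, lists and tests were chosen with earlier results of these data known. The rule for named genes took all 10 cathepsins, the 2 tested genes with the lowest p of each list, and the nearest profile of each cathepsin; other genes were named after their values were seen. Tf, a listed hepatocyte marker, and 7 other listed genes were not analysed here. Coordinates of genes are mm9 as deposited; promoter letters are RefSeq's on GRCm38.p6, and nothing was converted between builds.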

Additional observations from a re-analysis of the deposited data

How the results depend on the processing

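Of 150 values (15 alternatives for each of 10 cathepsins), 137 kept direction and call, 9 lost the call, 3 gained one and 1 turned. Ctsl ranged from 3.48 to 3.81 on the log2 scale, with an adjusted p of at most 0.000246. The value that turned was Ctss, at -0.28 without fasted replicate 3 and up to 0.66 without fasted replicate 1; the cause was not tested. Library totals gave 4 cathepsins lower, 17 listed lysosomal genes higher and 37 lower, against 28 and 24 with TMM factors. No count filter gave 1 cathepsin lower. Against a log2 change of 0.5 (glmTreat), 4 cathepsins passed, 3 higher and 1 lower; of all genes 4929 passed, 2338 higher and 2591 lower; of listed lysosomal genes 29 passed, 13 higher; and of cell type markers 16 passed, 7 higher, against 25 and 12. The share of Ctsl in refed livers was 22.78% by coding length. With 1 library left out at a time, 6 to 7 cathepsins and 6562 to 8712 of all genes passed. The deviations of fasted and refed libraries of the same number had correlations of -0.016, -0.062 and -0.081. Those of libraries of different numbers ran from -0.078 to 0.128. Whether the numbers mark pairs was not tested. With the replicate block, 7 cathepsins and 7340 genes passed. DESeq2 and limma-voom each called 7 cathepsins. The planned scaling by RefSeq protein length was not run. Depth was low for Ctse and Ctsk, with 8 to 30 counts per library, and for Tfec, with 3 to 23.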
